A study of Mus musculus with 4 samples.

Results

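The 10 genes described here are regulators and markers of chondrocyte hypertrophy, chosen by symbol from a table of 25239 genes: the secreted signals Ihh and Pthlh, the receptor Pth1r, the transcription factors Runx2, Runx3, Mef2c and Sp7, and the products of maturing cartilage cells Col10a1, Panx3 and Spp1. All 10 had reads and passed the filter on low counts, which left 15522 genes for testing. RNA-seq of poly(A) RNA was done on primary mouse chondrocytes in 4 libraries. The 2 control libraries came from Tiki2 fl/fl mice. The 2 conditional knockout (cKO) libraries came from mice with the same floxed alleles plus a tamoxifen-activated Cre recombinase driven by Col2a1, spelled Col2a1-Cre/ERT in the sample titles and Col2a-CreERT2 in the genotype field. Cultures of both genotypes were given 4-hydroxytamoxifen, the drug that switches this Cre on, so the groups share the floxed alleles and the drug but not the Cre, and effects of Cre and of Tiki2 loss cannot be told apart. The Cre is made in cells that use Col2a1, the collagen gene of cartilage. The sources used here do not give the age of the mice, or say whether cultures of 1 genotype came from separate animals. The p-values below therefore reflect the spread between these libraries, some of which may be technical.

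Hypertrophy is a late stage in the life of a growth cartilage cell. The cell swells, swaps type II for type X collagen, and helps the matrix to mineralise before bone replaces it. Indian hedgehog (Ihh), made by cells entering this stage, raises parathyroid hormone-related protein (PTHrP, encoded by Pthlh), which acts through the receptor Pth1r to hold younger cells back from it. Runx2, Runx3 and Mef2c drive the programme, and Sp7 (osterix) acts late in it and in bone-forming cells. Healthy articular chondrocytes normally do not enter hypertrophy, and its genes come on in osteoarthritic cartilage.

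Library totals ran from 66750140 to 78873054 counts. All 11 cartilage markers of a list that includes Col2a1, Acan and Sox9 were expressed in every library, and together they took 2.33% and 2.73% of the counts in controls 1 and 2 and 1.31% and 0.951% in cKO 1 and 2. Trabd2b, the gene of Tiki2, remained at 436 and 415 counts per 1000000 (CPM, scaled by TMM factors as are all CPM below) in controls 1 and 2 and at 292 and 363 CPM in cKO 1 and 2. Its log2 fold change was -0.38 ± 0.11 (SE; edgeR adjusted p = 0.148). It passed with DESeq2 (adjusted p = 0.00743) and in the edgeR fit that left out cKO 2 (-0.54, adjusted p = 0.027). These counts cover the whole gene, so the loss of the floxed part cannot be read from them. Control 1 had 112185 reads of Xist and 0 of Ddx3y, whereas the other 3 libraries had 36 to 171 and 11073 to 12085. Control 1 thus differed from the rest in sex, so the 2 controls came from different animals. For the 2 cKO libraries this is not known. Values without control 1 are given wherever leaving it out changed a call.

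Panx3 alone among the 10 genes passed the test. It fell 3.04-fold in cKO, by 1.60 ± 0.15 on the log2 scale (SE; edgeR quasi-likelihood test, adjusted p = 0.0264). So 1 of 10 was called, against 1.3% of all genes tested in either direction. Lower calls were 1 of 10 against 0.908% (141 genes) and higher calls 0 of 10 against 0.393% (61 genes). Without TMM scaling the split over all genes was 116 higher and 123 lower, and Panx3 stayed the single call among the 10. None of the 10 was higher in cKO at an unadjusted edgeR p under 0.05, by DESeq2 or by limma-voom. DESeq2 called 2 lower (Panx3 and Runx3), against 642 of all 15522 genes lower (7.47% in either direction). By limma-voom Panx3 alone was called lower, against 227 of all 15522 genes lower (2.15% in either direction). At an unadjusted edgeR p under 0.05, 3 of 10 genes were lower (Panx3, Runx3 and Col10a1), against 8.88% of all genes (17.2% in either direction). Both cKO libraries lay below both controls for 5 of the 10 (Panx3, Col10a1, Runx3, Sp7 and Ihh), against 24.9% of all genes, and for none did both lie above, also against 24.9% (49.8% in either direction). For Ihh this separation rests on 10 counts in control 2 and 10 in cKO 1. The median log2 fold change of the 10 was -0.39, and that of all genes was 0.0021. In bulk RNA a smaller share of cells that express a gene and less RNA per cell cannot be told apart.

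**Figure D1:**
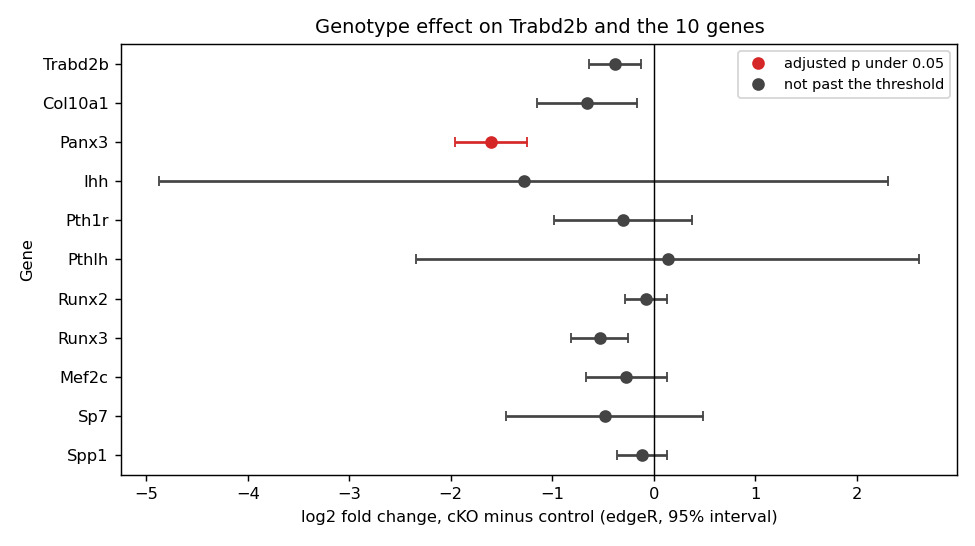
Log2 fold change (cKO minus control, horizontal axis) of Trabd2b and the 10 genes with 95% intervals from the edgeR fit over all 4 libraries; red marks an adjusted p under 0.05. Panx3 stands at -1.60 with an interval from -1.95 to -1.25, while the intervals of Ihh and Pthlh, which had few reads, each span more than the whole range of the other genes.

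Levels of different genes were compared per kilobase of merged exons. Spp1 stood far above the rest, with 3761 ± 538 CPM per kb in controls (SD, n = 2), and ranked the first, the third, the second and the first of 24321 genes in controls 1 and 2 and cKO 1 and 2. Panx3 came next in controls at 7.77 ± 0.778 CPM per kb. Pth1r (4.35 ± 0.154) and Runx3 (4.29 ± 0.348) followed and did not differ beyond their spread. Runx2 (3.64 ± 0.157), Col10a1 (3.02 ± 0.0473) and Mef2c (1.91 ± 0.372) were of the same order of magnitude. Sp7 was at 0.419 ± 0.103 CPM per kb, Pthlh at 0.171 ± 0.0917 and Ihh at 0.0519 ± 0.0118. In cKO, Panx3 moved from the second to the fifth place, with 2.56 ± 0.427 CPM per kb, behind Pth1r (3.53 ± 1.53), Runx2 (3.45 ± 0.141) and Runx3 (2.96 ± 0.310). Those 4 places are not firm, because the 2 cKO values of Pth1r enclosed those of Runx2 and Runx3 and overlapped those of Panx3.

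**Figure D2:**
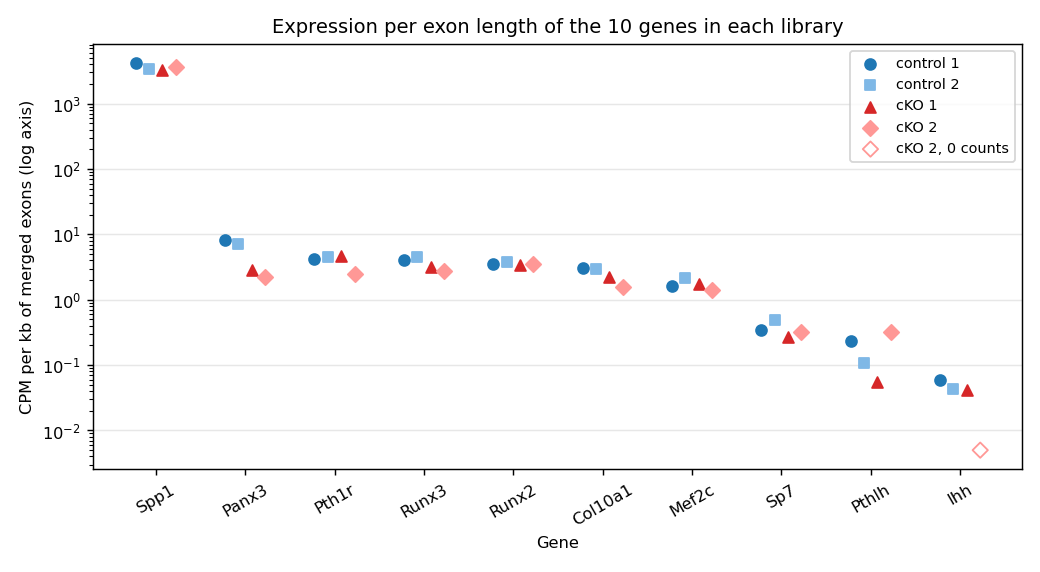
CPM per kb of merged exons (log axis) of each of the 10 genes in the 4 libraries, ordered by the control mean; the open symbol marks Ihh in cKO 2, which had 0 counts and is drawn at an arbitrary low position. Spp1 lies above 3289 in every library, and for Panx3 the cKO symbols lie clearly below the control symbols.

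The signalling loop itself was close to the limit of detection on the ligand side. Ihh (chromosome 1, 74945315 to 74951672, mm10), the hedgehog ligand of cartilage, had 12 and 10 counts in controls and 10 and 0 counts in cKO 1 and 2. The 0 counts in cKO 2 allow up to 3 counts, or 0.0369 CPM. The interval of its log2 fold change ran from -4.87 to 2.31, so neither the direction nor the size of a change was resolved. Pthlh (chromosome 6, 147252101 to 147264183), the gene of PTHrP, had 25 and 13 counts in controls and 7 and 42 counts in cKO. The lowest and the highest of these values were both in cKO, at 0.0903 and 0.517 CPM, and the interval of the log2 fold change (0.14) ran from -2.34 to 2.62. The sign of this value turned when control 2 (-0.33) or cKO 2 (-1.60) was left out.

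Pth1r (chromosome 9, 110722085 to 110747145), the receptor that receives PTHrP, was well expressed. It had 12.4 and 13.0 CPM in controls against 13.5 and 7.16 CPM in cKO 1 and 2. The other libraries were thus alike and cKO 2 was low, 1.88-fold under cKO 1, so the groups overlapped. The log2 fold change was -0.30 ± 0.28 (SE; edgeR adjusted p = 0.654). It was -0.83 without cKO 1, where Pth1r passed (edgeR adjusted p = 0.0425), and 0.086 without cKO 2. Pth1r shares 95 exon bases with Myl3 on the other strand, a gene with at most 0.0516 CPM here.

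Other genes of hedgehog and PTHrP signalling were taken from a list of 20, of which 19 were tested (Shh had 0 counts). None passed by edgeR or limma-voom. At an unadjusted edgeR p under 0.05, 5 were higher and 0 lower, against 8.36% and 8.88% of all genes, and DESeq2 called 3 higher, as it did 518 of all 15522. Of the 19, 15 had log2 fold changes above 0, with a median of 0.18, and 7824 of all 15522 genes were above 0. Prkaca, a catalytic subunit of protein kinase A, which carries the Pth1r signal, had 72.3 and 72.5 CPM in controls against 83.1 and 90.6 CPM in cKO (log2 fold change 0.26, edgeR adjusted p = 0.117). Sufu, an inhibitor of the Gli factors, had 27.4 and 26.1 CPM in controls against 33.5 and 33.0 CPM in cKO (0.31, adjusted p = 0.126). Gas1, a hedgehog co-receptor, had 1076 and 920.4 CPM in controls against 1178 and 1396 CPM in cKO (0.37, adjusted p = 0.159).

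Hhip, a hedgehog-binding protein and hedgehog target, had 1.33 and 2.74 CPM in controls against 3.38 and 5.71 CPM in cKO. Its log2 fold change of 1.15 ± 0.43 (SE; edgeR adjusted p = 0.243) was the highest of this list, and its controls differed 2.06-fold from each other. Gli1 and Ptch1, the usual readouts of hedgehog signalling, are given outside the naming rule, after their values were seen. Gli1 had at most 0.290 CPM in any library. Ptch1 had 43.97 and 45.2 CPM in controls against 42.9 and 39.2 CPM in cKO, or -0.12 ± 0.08 on the log2 scale (SE; edgeR adjusted p = 0.513).

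The transcription factors of the group were tested next, and RUNX motifs were looked for upstream of the genes, since Runx2 and Runx3 bind the same short DNA motif and are known to act on cartilage and bone genes. RefSeq windows of 250 bases upstream of the start (GRCm38.p6) were found for 8 of the 10 genes, with 14 start sites; Panx3 and Sp7 had no entry. The motif TGTGGT, on either strand, was present at 3 of the 14 start sites, those of Runx2, Runx3 (its first start) and Spp1 (its first start), and at 14% of 32851 windows of all genes. Shown are the windows of Col10a1 and Runx3, which had an unadjusted edgeR p under 0.05 (for Runx3 the first start), and that of Spp1 (its first start), the most abundant gene. Each is written 5′ to 3′ on the gene's own strand (plus for all 3), and capitals mark the RUNX motif, read here from the other strand as ACCACA.
Col10a1, chr10:34389731-34389980: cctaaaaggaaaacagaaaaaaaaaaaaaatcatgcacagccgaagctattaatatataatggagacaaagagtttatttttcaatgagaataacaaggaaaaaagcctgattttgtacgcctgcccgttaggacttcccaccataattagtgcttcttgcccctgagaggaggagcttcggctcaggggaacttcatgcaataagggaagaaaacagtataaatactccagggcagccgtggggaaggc
Runx3, chr4:135120395-135120644: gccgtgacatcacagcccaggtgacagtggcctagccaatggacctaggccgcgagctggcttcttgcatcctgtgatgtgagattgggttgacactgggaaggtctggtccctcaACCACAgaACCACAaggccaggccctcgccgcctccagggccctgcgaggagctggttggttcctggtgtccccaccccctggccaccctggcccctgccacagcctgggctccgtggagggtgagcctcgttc
Spp1, chr5:104434861-104435110: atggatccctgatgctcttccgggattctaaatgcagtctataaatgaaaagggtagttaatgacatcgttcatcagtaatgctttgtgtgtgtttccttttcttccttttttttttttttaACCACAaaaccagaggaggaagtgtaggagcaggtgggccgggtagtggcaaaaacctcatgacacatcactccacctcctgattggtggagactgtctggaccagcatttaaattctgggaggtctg
Runx3 holds the motif in a pair, beginning 134 and 126 bases before the RefSeq start, and Spp1 holds 1 copy, beginning 128 bases before its own. Neither RefSeq start matched a GENCODE transcript. These 2 windows end at 135120644 and 104435110, whereas the GENCODE genes start at 135120652 and 104435118. Col10a1 has none in this window, and neither does it hold any of the other motifs searched, on either strand: TGACTCA or TGAGTCA (AP-1), ACAATG (SOX), GGGCGG (the GC box of SP factors), TGGGTGG (the start of the GLI box) and the MEF2 box. These motifs do not overlap each other in the windows shown. At the 14 start sites they were present at 0, 0, 6, 1 and 1, against 4.46%, 10.7%, 32.7%, 8.11% and 2.92% of all windows. A match is a run of letters and does not show binding.

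Runx2 (chromosome 17, 44495987 to 44814797), the main driver of hypertrophy, was nearly level. It had 31.1 and 33.1 CPM in controls against 29.6 and 31.4 CPM in cKO. The groups overlapped, and the interval of the fold ran from 0.823 to 1.09 (log2 fold change -0.08 ± 0.08, SE; edgeR adjusted p = 0.721). This standard error was the smallest of the 10 genes. Antisense transcripts overlap it (Runx2os1 shares 519 exon bases), and the sources used here do not say whether the counting used strand.

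Runx3 (chromosome 4, 135120652 to 135177990), which acts together with Runx2 in maturing chondrocytes, had 20.2 and 22.7 CPM in controls against 15.9 and 13.7 CPM in cKO. Both cKO values were below both controls. The log2 fold change was -0.53 ± 0.12 (SE) and did not pass with edgeR (adjusted p = 0.0897) or limma-voom (0.0873), while DESeq2 gave an adjusted p of 0.0109. Over the alternatives tried, the adjusted p ran from 0.0109 to 0.346 and the log2 fold change from -0.65 to -0.43. Runx3 is also a gene of T cells, and of 5 T cell markers all were at 10 counts or fewer in every library.

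Mef2c (chromosome 13, 83504034 to 83667080), a factor of hypertrophy that muscle, endothelial and immune cells also use, had 25.9 and 34.2 CPM in controls against 27.5 and 22.2 CPM in cKO. Control 2 was highest and cKO 2 lowest, and control 1 lay between the cKO values. The log2 fold change was -0.27 ± 0.16 (SE; edgeR adjusted p = 0.468), with -0.06 when control 2 was left out and -0.46 when control 1 was. The 8 skeletal muscle markers summed to 5.65 and 36.1 CPM in controls against 76.7 and 14.9 CPM in cKO (on plain library sizes), and the 6 endothelial markers to between 0.479 and 0.968 CPM. Mef2c and the muscle sum were thus each lower in control 1 than in control 2 and lower in cKO 2 than in cKO 1. Between the groups they differed, with the highest muscle sum in cKO 1 and the highest Mef2c in control 2. Whether muscle RNA took part in the Mef2c values was not tested.

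Sp7 (chromosome 15, 102356606 to 102367182), the factor of bone-forming cells, was low, with 77 and 126 counts in controls and 72 and 90 counts in cKO. At 1.18 and 1.67 CPM in controls against 0.928 and 1.11 CPM in cKO the groups did not overlap, but the controls differed 1.42-fold from each other. The log2 fold change was -0.48 ± 0.40 (SE; edgeR adjusted p = 0.603), with an interval of the fold from 0.365 to 1.40. It was -0.71 without control 1 and -0.21 without control 2.

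Partners of these factors gave no edgeR or limma-voom call among 18 tested. At an unadjusted edgeR p under 0.05, 5 were higher and 3 lower, against 8.36% and 8.88% of all genes. DESeq2 called 1 higher and 2 lower, against 518 and 642 of the 15522 genes (7.47% in either direction). Their median log2 fold change was 0.04. Zfp521, a repressor of Runx2 activity, had 130.3 and 143 CPM in controls against 171 and 159 CPM in cKO (log2 fold change 0.28, edgeR adjusted p = 0.122). Twist1, another protein that restrains Runx2, had 30.6 and 30.3 CPM in controls against 38.2 and 35.8 CPM in cKO (0.28, adjusted p = 0.154). Foxa2, which takes part in hypertrophy, had 1.48 and 1.34 CPM in controls against 0.335 and 0.529 CPM in cKO, or -1.70 ± 0.48 on the log2 scale (SE; edgeR adjusted p = 0.148, DESeq2 0.039). Sox9, which holds chondrocytes in their cartilage state, had 228 and 232 CPM in controls against 197 and 157 CPM in cKO (-0.38, edgeR adjusted p = 0.151).

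**Figure D3:**
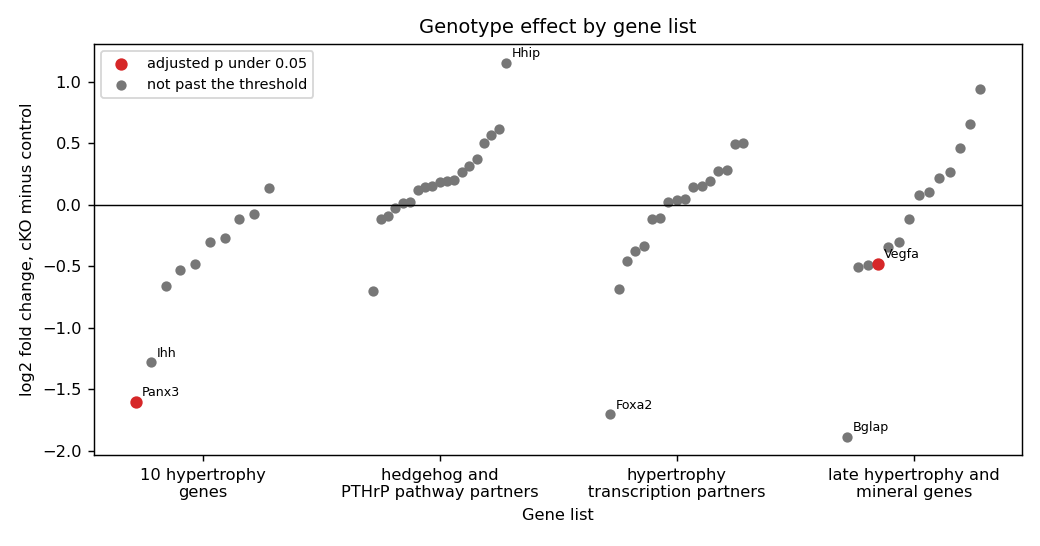
Log2 fold change (cKO minus control, vertical axis) of each tested gene in the 10 hypertrophy genes and in 3 lists of related genes; each point is a gene, red marks an adjusted p under 0.05, and names are given for calls and for values beyond 1 in size. Panx3 and Vegfa are the 2 calls, and Dlx6, with 0 counts in both controls, is not drawn.

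Among the products of hypertrophic cells, Panx3 (chromosome 9, 37659902 to 37669235, minus strand), a pannexin channel of prehypertrophic and hypertrophic chondrocytes and of osteoblasts, gave the one clear difference. It had 1869 and 1870 counts in controls and 762 and 630 counts in cKO. Scaled, these were 28.6 and 24.8 CPM in controls against 9.82 and 7.75 CPM in cKO, or 26.7 ± 2.67 and 8.79 ± 1.47 CPM (SD, n = 2 each). The lowest control was more than 2-fold above the highest cKO library, and the replicates of each group differed by 1.15-fold and 1.27-fold. DESeq2 gave an adjusted p of 8.39e-17 and limma-voom 0.0189. With 1 control left, the log2 fold change was -1.50 without control 1 (edgeR adjusted p = 0.111) and -1.70 without control 2 (0.0797), so the call was lost in both fits. Without cKO 1 or cKO 2 it stayed, at -1.79 and -1.44. Summed markers of several cell types differed between the same libraries, on plain library sizes. The 11 cartilage markers stood at 23295 and 27270.1 CPM in controls against 13095 and 9505 CPM in cKO. By edgeR all of them but Matn3 and Sox9 were called lower, from 1.90-fold for Comp to 3.23-fold for Col9a2. Not all of these marker calls held without control 1, and their values in that fit are not given here. The 6 fibroblast markers, led by Col3a1, stood at 6693 and 6385 CPM in controls against 8096 and 8716 CPM in cKO. Dcn alone among them was lower in cKO, at 1760 and 1719 CPM in controls against 1467 and 1472 CPM (TMM-scaled). The 8 adipocyte markers, led by Lpl and with Lep at 10 counts or fewer, stood at 202 and 204 CPM against 306.5 and 500.0 CPM. Their part in the Panx3 result, and in the lower values of Col10a1, Runx3 and Vegfa given here, was not tested.

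Col10a1 (chromosome 10, 34389981 to 34397085), the type X collagen that defines hypertrophic cartilage, had 626 and 706 counts in controls and 546 and 402 counts in cKO. Its 9.57 and 9.36 CPM in controls agreed closely, and its 7.04 and 4.95 CPM in cKO were both lower but further apart. The log2 fold change was -0.66 ± 0.20 (SE; edgeR adjusted p = 0.175), and DESeq2 gave 0.0715, so it did not pass. Over all alternatives the log2 fold change ran from -0.94 without cKO 1 to -0.43 without cKO 2, and the adjusted p from 0.0522 to 0.467. The Col10a1 gene lies inside Nt5dc1, which is on the other strand and shares 18 of its exon bases, and Nt5dc1 had 12.4 to 15.5 CPM.

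Spp1 (chromosome 5, 104435118 to 104441050), which encodes osteopontin, a secreted phosphoprotein of mineralising cartilage and bone, had 6826 and 5571 CPM in controls against 5420.4 and 6033 CPM in cKO. It took between 0.544% and 0.669% of all counts. The cKO values straddled control 2, and the interval of the fold ran from 0.777 to 1.10 (log2 fold change -0.11 ± 0.10, SE; edgeR adjusted p = 0.642). The value was 0.040 without control 1. Macrophages and osteoclasts also make osteopontin. Of 8 macrophage markers, 4 had 10 counts or fewer in every library (Adgre1, C1qb, Fcgr1 and Tyrobp), and the sum of all 8 was 9.33 to 13.3 CPM. The 6 osteoclast markers summed to 469.7 and 460.3 CPM in controls against 430.5 and 393 CPM in cKO. Most of this came from Ctsk, a gene also used outside osteoclasts. Acp5 had 6.99 to 10.5 CPM. Oscar, Ocstamp and Calcr were at 0.923 CPM or less, and the osteoclast fusion gene Dcstamp was at 10 counts or fewer. What macrophages or osteoclasts added to the Spp1 values was not tested.

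**Figure D4:**
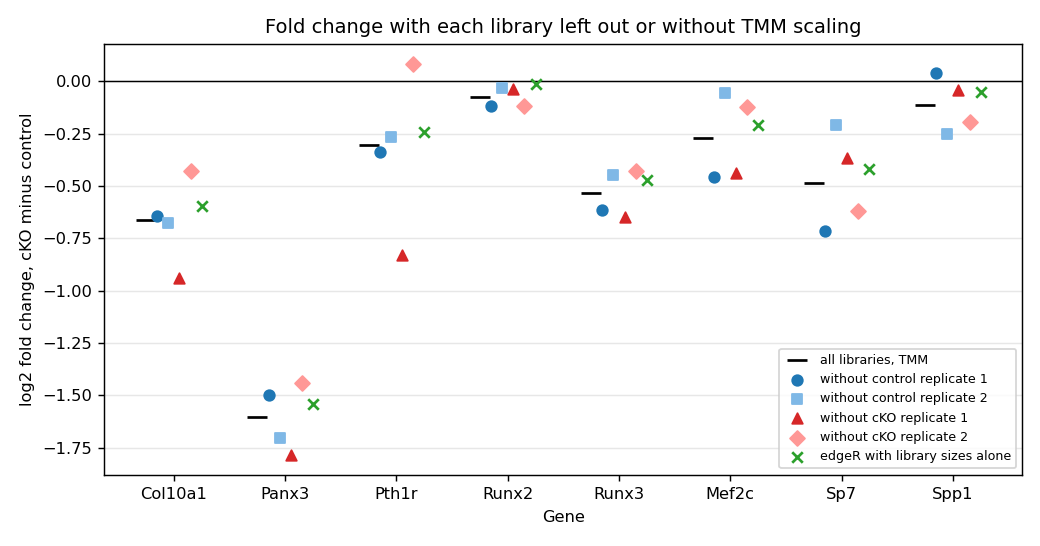
Log2 fold change (cKO minus control, vertical axis) of 8 of the genes with all libraries, with each library left out in turn, and without TMM scaling; Ihh and Pthlh, at 42 counts or fewer in every library, are not drawn. Panx3 stays between -1.79 and -1.44, while Pth1r and Spp1 each have a value above 0.

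Later genes of hypertrophy and mineralisation were taken from a list of 15, of which 14 were tested, and 1, Vegfa, fell, against 0.908% of all genes lower. At an unadjusted edgeR p under 0.05, 6 were lower and 1 higher, against 8.88% and 8.36% of all genes. DESeq2 called 4 lower (642 of all 15522 genes were) and limma-voom 1 in either direction (2.15% of all genes), and the list's median log2 fold change was -0.02. Vegfa, which draws blood vessels into hypertrophic cartilage, had 473 and 449 CPM in controls against 342 and 319 CPM in cKO (log2 fold change -0.48 ± 0.07, SE; edgeR adjusted p = 0.0373), and it did not pass without control 1 or without control 2. Mmp13, the collagenase of hypertrophic and osteoarthritic cartilage, had 6776 and 6808 CPM in controls against 4791 and 5929 CPM in cKO (-0.34, edgeR adjusted p = 0.151). Phospho1, a phosphatase that starts mineral formation, had 24.1 and 29.7 CPM in controls against 17.8 and 20.03 CPM in cKO (-0.51, adjusted p = 0.122). Ccn2, a matricellular growth regulator of hypertrophic cartilage, had 823 and 991 CPM in controls against 727 and 567 CPM in cKO (-0.49, adjusted p = 0.151). Tgm2, a crosslinking enzyme, had 31.4 and 31.1 CPM in controls against 25.8 and 24.8 CPM in cKO (-0.31, adjusted p = 0.135). Markers of osteoblasts and osteocytes were low in all libraries, with a summed 13.9 to 16.5 CPM over 7 genes (5 of them also in the list of late genes), mostly from Ibsp, and with Mepe and Sost at 10 counts or fewer.

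Because the cartilage markers were themselves lower in cKO, each of the 9 genes with reads in every library (all but Ihh) was also set against the summed counts of the 11 markers of its own library, as counts per 1000000 marker counts, which needs no library scaling. On this measure Panx3 was the one gene of the 9 with both cKO values below both controls, and it stood at 1202 and 887 in controls and 761 and 840.4 in cKO, a log2 difference of -0.37. That difference was -0.15 without control 1 and -0.59 without control 2. Against Col2a1 alone the difference was -0.31 and the groups overlapped. The 2 references are not independent, because Col2a1 gave most of the marker counts (938642 of 1554919 in control 1, 437323 of 749654 in cKO 2). Col10a1 was lower in CPM but fell less than the summed markers, so its ratio was higher. It stood at 403 and 335 in controls and 546 and 536 in cKO (log2 difference 0.56). Runx2, level in CPM, went from 1310.0 and 1185 to 2295 and 3402 (1.17), and Spp1 had a log2 difference of 1.13. The other genes with reads in every library had differences from 0.71 for Runx3 to 0.98 for Mef2c, apart from Pthlh. For Sp7 the difference was 0.77, and 0.40 without cKO 2. For Pthlh, whose groups overlapped, it was 0.99 with all libraries, 2.49 without cKO 1 and -0.51 without cKO 2. In Col10a1, Pth1r, Runx2, Runx3, Mef2c, Sp7 and Spp1 both cKO ratios lay above both control ratios. The exact permutation test (two-sided) gave p = 0.333 for each of these and for Panx3, the smallest that 2 against 2 libraries can give, so the ratios are a description. Such a ratio moves with the markers as well as with the gene. The markers took 2.33% and 2.73% of the counts in controls against 1.31% and 0.951% in cKO. A gene level in CPM therefore comes out higher in cKO on this measure. How many of all genes lay above or below both controls on this measure was not counted.

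**Figure D5:**
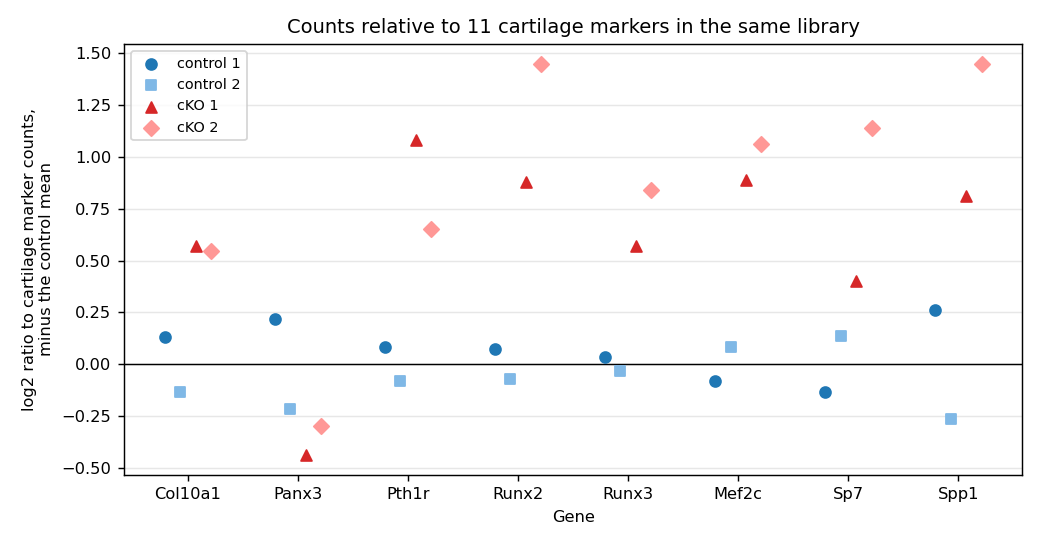
Log2 ratio of each gene's counts to the counts of 11 cartilage markers in the same library, minus the mean of the 2 controls (vertical axis), with 1 symbol per library; Ihh and Pthlh are not drawn. The cKO symbols lie above the controls for 7 genes and below them for Panx3. A gene level in CPM also lies above, because the markers were lower in cKO.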

How the data were processed

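Raw read counts per gene symbol, unscaled, were deposited by the authors for all 4 libraries. Build mm10 and, among other tools, HISAT2 2.2.1 and StringTie 2.1.7 are named in the submitters' processing notes, with no roles. The sources used here do not give the counter, its strand setting or the annotation.

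Genes were kept by filterByExpr (minimum count 10) and tested over the whole table by the edgeR 4.0.16 quasi-likelihood test with TMM scaling (R 4.3.3), Benjamini-Hochberg adjusted over 15522 genes at 0.05, with no covariate. A gene was called when its adjusted p was under 0.05. Intervals are 95% and use the t distribution. The fit was first run on simulated data that gave all genes the same spread and changed only genes above 1 CPM. That run does not cover genes as low as Ihh and Pthlh. DESeq2 1.42.0, limma-voom (limma 3.58.1), other scalings and filters, counts divided by 4, left-out libraries and a replicate block were alternatives. CPM use TMM-scaled library sizes, marker sums plain ones. Exon lengths and positions are from GENCODE M21 (mm10), which gave lengths for 24321 (96.4%) of the symbols; upstream windows are from RefSeq. Where a library had 0 counts, a floor of 3 counts was used, which covers counting error only.

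The 10 genes, the lists, the tests and the naming rule were chosen with earlier results of these data known. The rule named all 10 genes, Trabd2b and, in each related list, called genes and up to 4 more by smallest p.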

Additional observations from a re-analysis of the deposited data

How the results depend on the processing

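Panx3 had the same direction in all 13 alternatives (log2 fold change -1.79 to -1.44) and stayed called in 11, the exceptions being the fits without control 1 or control 2. The count of the 10 genes called lower was 1, and 2 with DESeq2 (Panx3 and Runx3). Leaving out 1 library gave 0 to 2. For the hedgehog and PTHrP list, DESeq2 called 3 higher, and leaving out 1 library gave 0 to 1. For the transcription partners, DESeq2 called 1 higher and 2 lower, and leaving out 1 library gave 0 to 2 lower. For the late genes, DESeq2 called 4 lower, leaving out 1 library gave 0 to 3, and the replicate block gave 0, so Vegfa was lost. Trabd2b passed with DESeq2 (-0.38, adjusted p = 0.00743), without cKO 2 (adjusted p = 0.027) and with the crossed block described below (-0.39, adjusted p = 0.0464), and leaving out 1 library gave log2 fold changes from -0.54 to -0.23. The cause of these shifts was not tested. A fit with 1 library in a group assumes that it varies like the other group.

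Replicate numbers are shared by the groups, but the labels do not say that they mark a pairing. Deviations of same-numbered libraries had a correlation of -0.158. With the number as a replicate block, Panx3 stayed the 1 member called (-1.61, adjusted p = 0.0314), while calls over all genes went from 61 higher and 141 lower to 3 and 20. A crossed replicate block, chosen after seeing the data, gave 223 and 341, with 2 of the 10 genes lower, 2 hedgehog and PTHrP genes higher and 2 late genes lower.

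Leaving out 1 library gave log2 fold changes from -0.83 to 0.086 for Pth1r (above 0 without cKO 2), -0.25 to 0.040 for Spp1 (above 0 without control 1) and -1.60 to 0.90 for Pthlh, whose 42 counts or fewer set the precision. Pthlh also turned to -0.18 with limma-voom, with the replicate block and with the crossed block. Calls over all genes were 518 higher and 642 lower with DESeq2, 106 and 227 with limma-voom, 113 and 211 with the 1 CPM filter, 128 and 243 with counts divided by 4, and from 1 and 4 to 312 and 470 when 1 library was left out. Ihh and Pthlh gave no value with the 1 CPM filter or with counts divided by 4.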
